A study of Mus musculus with 9 samples.

Results

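The Polycomb repressive complex genes examined here were Ezh1, Ezh2, Eed and Suz12 of Polycomb repressive complex 2 (PRC2), and Bmi1, Ring1, Cbx2, Cbx7 and Cbx8 of Polycomb repressive complex 1 (PRC1). They were taken by symbol, and each of the 9 was listed once in every library, among 55488 listed genes. All 9 passed the filter on low values, TPM (transcript abundance per gene length, scaled to the library) of 1 or more in at least 3 libraries, with 19461 genes in all. RNA was sequenced from lysates of 100 sorted cells of C57BL/6 mouse fetal liver at embryonic day 14.5, with 3 libraries, numbered 1 to 3, in each of 3 groups. Evi1 HSC libraries came from Tie2-Cre::ROSA-Evi1 embryos, in which Cre driven by Tie2, an endothelial and blood gene, is there to switch on the transcription factor Evi1, and were sorted as Lin- cells that were c-Kit+ and Sca-1+, CD150+ but CD48-, and GFP+, a gate for haematopoietic stem cells (HSC). WT HSC libraries came from ROSA-Evi1 embryos with no Cre and were sorted by that gate without GFP. WT KL libraries came from ROSA-Evi1 embryos without Cre too and held c-Kit+Sca-1-Lin- cells, a gate of committed progenitors. All 3 groups therefore carried the ROSA-Evi1 allele. No label says that replicates came from separate embryos, so p-values reflect the spread of these samples alone.

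PRC2 places methyl groups on lysine 27 of histone H3. Its catalytic subunit is either Ezh2, which is abundant in dividing cells, or Ezh1, a paralogue known for a larger part in slowly dividing cells, and Eed and Suz12 hold either enzyme in an active complex. PRC1 places ubiquitin on histone H2A through Ring1 or its paralogue Rnf2, paired with a PCGF protein such as Bmi1, and in canonical PRC1 a Cbx protein binds the methyl mark that PRC2 leaves. In blood, Bmi1 is known to be needed for HSC self-renewal, and the Cbx proteins compete for a place in PRC1, with Cbx7 tied to self-renewal and Cbx2 and Cbx8 to differentiation.

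The labels of 2 libraries went against genes of the sorting gates and against Mecom, which is in no gate. Mecom, the gene of Evi1, stood at 176 to 210 TPM in Evi1 HSC libraries, at 161 and 114 TPM in WT HSC 1 and 2 and at 0.0107 and 0.326 TPM in WT KL 2 and 3. Its values in the libraries labelled WT HSC 3 and WT KL 1 were 0.0167 and 90.8 TPM. Ly6a (Sca-1) was at 0 and 19.7 TPM in that pair, against 13.2 to 58.6 TPM in the other HSC libraries and at most 0.0354 TPM in the other KL libraries. Slamf1 (CD150) was at 0.387 and 11.3 TPM in the pair, against 3.35 to 9.60 TPM and at most 0.386 TPM. Cd48 was at 16.7 and 2.99 TPM in the pair, against 2.06 to 4.07 TPM in the other HSC libraries and 15.0 and 13.7 TPM in WT KL 2 and 3. Egfp was listed at 23.4 to 27.3 TPM in Evi1 HSC and below 1 TPM elsewhere. Genes at 1 TPM or more numbered 18258 to 18806 in 6 libraries, and 15422 to 15819 in WT KL 2 and 3 and the library labelled WT HSC 3. Tests on the 9 genes are therefore given for the 9 libraries as labelled and for the 7 libraries without those 2. Other genes are described over 7 libraries, with the count of calls over 9 stated once, and no library was moved to another group.

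Ezh2, Eed and Suz12 were the 3 most abundant of the 9 genes in every library, and Cbx8 was the least abundant in every library. Over the 9 libraries the log2(TPM + 1) of Ezh1 spanned 2.37, that of Cbx7 2.06, that of Cbx2 1.66, that of Bmi1 1.52, that of Ezh2 1.28 and that of Cbx8 1.21. The spans of Suz12, Ring1 and Eed were 0.82, 0.80 and 0.52. On this scale, which understates changes of low genes, the less abundant methyltransferase gene and a pair of chromobox genes thus varied most. As ratios of TPM the order differed. Cbx7 (0.962 to 7.15 TPM) then came ahead of Ezh1 (2.88 to 19.0 TPM), and Cbx8 (0.713 to 2.96 TPM) was close to Cbx2 (2.37 to 9.62 TPM).

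**Figure D1:**
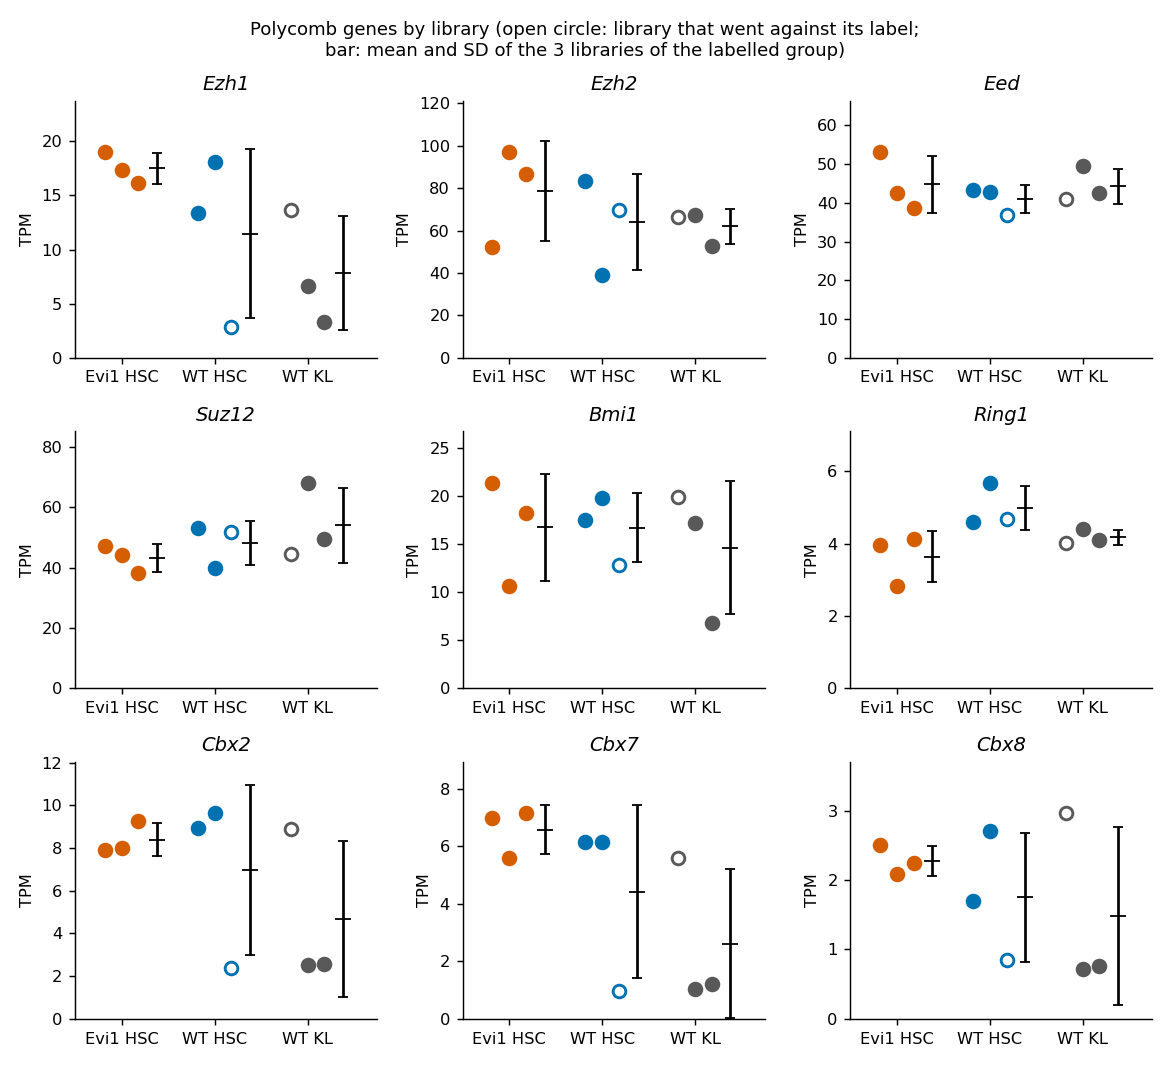
Level of each of the 9 genes in TPM (vertical axis, linear, a separate scale for each gene) in every library of the 3 labelled groups. Open circles are the library labelled WT HSC 3 and the library labelled WT KL 1, and bars are the mean and SD of the 3 labelled libraries. Ezh1, Cbx2, Cbx7 and Cbx8 were low in WT KL 2 and 3 and in the open WT HSC circle, and the open WT KL circle lay with or near the stem cell libraries.

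Within PRC2, Ezh2 (ENSMUSG00000029687, mouse build GRCm38, chromosome 6 from 47530139 to 47595341, minus strand) stood at 52.1, 97.0 and 86.6 TPM in Evi1 HSC 1 to 3. WT HSC 1 to 3 held 83.3, 39.3 and 69.9 TPM, and WT KL 1 to 3 held 66.4, 67.2 and 52.6 TPM. The 3 groups overlapped, and the highest and lowest values were both in stem cell libraries. Eed (ENSMUSG00000030619, chromosome 7 from 89954654 to 89980983, minus strand), which reads the methyl mark, was the steadiest of the 9, from 36.8 to 53.1 TPM over all libraries. Suz12 (ENSMUSG00000017548, chromosome 11 from 79993106 to 80034123, plus strand), the scaffold of the complex, ran from 38.1 to 68.2 TPM, with its highest value in WT KL 2. Of the exonic bases of these genes, 174 of 6678 in Ezh2 are shared with Gm26625, 261 of 3828 in Eed with E230029C05Rik and 178 of 4945 in Suz12 with Gm26563, and use of strand in counting is not stated in the sources used here.

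Ezh1 (ENSMUSG00000006920, chromosome 11 from 101191115 to 101226463, minus strand) stood at 19.0, 17.4 and 16.2 TPM in Evi1 HSC 1 to 3. It was at 13.4 and 18.1 TPM in WT HSC 1 and 2, and lower in WT KL 2 and 3, at 6.62 and 3.31 TPM. The libraries labelled WT HSC 3 and WT KL 1 were at 2.88 TPM, the lowest of all, and 13.6 TPM. Over 7 libraries, both KL values lay below all 5 stem cell values, and over the 9 labelled libraries the groups WT HSC and WT KL overlapped. The share of all genes that split in this way was not counted. Over 7 libraries limma gave 37.5% of all tested genes an adjusted p under 0.05 between WT HSC and WT KL. The stretch of RefSeq promoter upstream of Ezh1 is shown because Ezh1 had the widest range of the 9 in log2(TPM + 1). It lies at chr11:101226464-101226613 (GRCm38.p6, minus strand), covers positions -150 to -1 from the start site, and holds in capitals its 1 match to the motif of the factor NRF1:
Ezh1: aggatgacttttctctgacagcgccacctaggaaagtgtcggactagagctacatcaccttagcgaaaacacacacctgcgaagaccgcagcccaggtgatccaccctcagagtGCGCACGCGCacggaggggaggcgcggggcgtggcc

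Ezh1 transcripts were the minor part of the methyltransferase pair in every library. Ezh1 made up 26.7, 15.2 and 15.7% of the summed Ezh1 and Ezh2 TPM in Evi1 HSC 1 to 3, 13.8 and 31.6% in WT HSC 1 and 2, and 8.97 and 5.91% in WT KL 2 and 3. In the libraries labelled WT HSC 3 and WT KL 1 it was 3.95 and 17.0%. Without the pair that went against its labels, the share was 19.2 ± 6.51% (SD, n = 3) in Evi1 HSC, 22.7 ± 12.6% (SD, n = 2) in WT HSC and 7.44 ± 2.16% (SD, n = 2) in WT KL. The spread within the stem cell groups was wide, since WT HSC 2 and Evi1 HSC 1 combined a high share with the lowest Ezh2 values. An exact two-sided permutation test gave p = 0.8 for Evi1 HSC against WT HSC, 0.3333 for WT HSC against WT KL and 0.2 for Evi1 HSC against WT KL, where the smallest p these group sizes allow is 0.2, 0.3333 and 0.2. Over the 9 labelled libraries the mean share was 16.5 ± 14.0% (SD, n = 3) in WT HSC and 10.6 ± 5.74% (SD, n = 3) in WT KL, and the exact p was 0.8, 0.7 and 0.3 in that order, where the smallest possible is 0.1. The difference between Evi1 HSC and WT HSC turned with the choice of libraries, from 2.76 percentage points over 9 to -3.49 over 7.

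Summed S phase markers, 15 genes, stood at 1098 to 1145 TPM in Evi1 HSC, at 1218 and 1114 TPM in WT HSC 1 and 2 and at 1975 and 1946 TPM in WT KL 2 and 3. Summed G2 and M phase markers, also 15 genes, stood at 740 to 862, at 768 and 572, and at 1163 and 1012 TPM in the same libraries. The libraries labelled WT HSC 3 and WT KL 1 had S phase sums of 1909 and 1224 TPM and G2 and M phase sums of 1078 and 777 TPM. WT KL 2 and 3 thus had higher sums of cell cycle markers than the 5 stem cell libraries, while their Ezh2 values of 67.2 and 52.6 TPM lay within the stem cell range. Not every marker followed the sums. Gins2 of the S phase list and Cdk1, Ccnb2, Cenpe, Cenpf and Kif11 of the other lay within the stem cell range in both KL libraries. The part of the cell cycle in the levels of Ezh1 and Ezh2 was not tested.

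**Figure D2:**
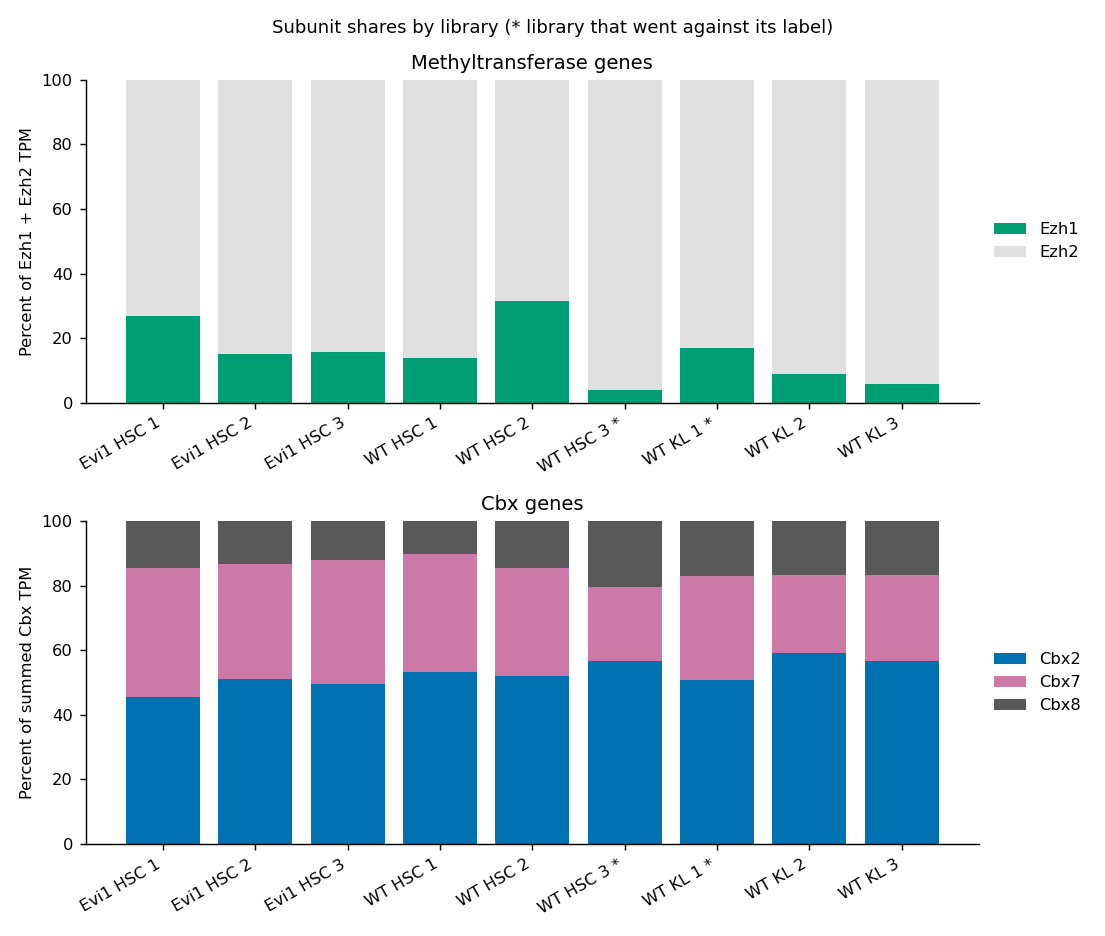
Share of each gene in percent of summed TPM (vertical axis) by library, for Ezh1 and Ezh2 above and for Cbx2, Cbx7 and Cbx8 below. A star marks a library that went against its label. Ezh1 held its smallest shares in WT KL 2 and 3 and in the starred WT HSC library, where Cbx7 held its smallest too.

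In PRC1, Bmi1 (ENSMUSG00000026739, chromosome 2 from 18677018 to 18686629, plus strand) stood at 21.4, 10.6 and 18.3 TPM in Evi1 HSC 1 to 3. WT HSC 1 to 3 held 17.5, 19.8 and 12.8 TPM, and WT KL 1 to 3 held 19.9, 17.2 and 6.81 TPM. WT KL 3 was the lowest and WT KL 2 lay among the stem cell libraries, so the groups overlapped with or without the pair that went against its labels. Pcgf2, the closest paralogue of Bmi1, was at 3.55 to 4.95 TPM in the Evi1 HSC libraries and in WT HSC 1 and 2, and at 1.20 and 1.59 TPM in WT KL 2 and 3. Bmi1 made up 68.2 to 93.5% of the pair in the 9 libraries, and the exact two-sided permutation p of the 3 comparisons was 0.4 to 0.6667 over 7 libraries and 0.3 to 1.0 over 9.

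Ring1 (ENSMUSG00000024325, chromosome 17 from 34020792 to 34024680, minus strand), a ubiquitin ligase of PRC1, stood at 3.96, 2.83 and 4.12 TPM in Evi1 HSC 1 to 3. WT HSC 1 to 3 held 4.60, 5.69 and 4.69 TPM, and WT KL 1 to 3 held 4.03, 4.41 and 4.10 TPM. All 3 Evi1 HSC values lay below all 3 WT HSC values, the library that went against its label included. The share of all genes that separated in this way was not counted, so this is a description only. The library labelled WT KL 1, which went against its label too, lay within the Evi1 HSC range in level and in the share below. Rnf2, the other ligase, was more abundant at 24.0 to 55.1 TPM. Ring1 made up 6.71, 6.42 and 8.68% of the pair in Evi1 HSC, 10.6, 12.7 and 15.5% in WT HSC 1 to 3 and 8.56, 13.7 and 14.6% in WT KL 1 to 3. The mean share was 7.27 ± 1.23% (SD, n = 3) in Evi1 HSC and 13.0 ± 2.44% (SD, n = 3) in WT HSC, and the exact two-sided permutation test gave p = 0.1, the smallest that 3 libraries against 3 allow. This was 1 of 18 share comparisons made over the 9 libraries, and its p adjusted over them was 0.45.

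Cbx2, Cbx7 and Cbx8 each had a low level in WT KL 2 and 3. Cbx2 (ENSMUSG00000025577, chromosome 11 from 119022962 to 119031270, plus strand) stood at 7.93, 7.99 and 9.27 TPM in Evi1 HSC, at 8.91 and 9.62 TPM in WT HSC 1 and 2 and at 2.53 and 2.58 TPM in WT KL 2 and 3. Cbx2 levels of 2.37 and 8.90 TPM were found in the libraries labelled WT HSC 3 and WT KL 1. Over 7 libraries the stem cell values lay at 7.93 TPM or above and the KL values at 2.58 TPM or below. As for Ezh1, the share of all genes with such a split was not counted, here or for the Cbx genes below.

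Cbx7 (ENSMUSG00000053411, chromosome 15 from 79915807 to 79971119, minus strand) stood at 6.99, 5.59 and 7.15 TPM in Evi1 HSC, at 6.16 TPM in both WT HSC 1 and 2 and at 1.04 and 1.21 TPM in WT KL 2 and 3. The libraries labelled WT HSC 3 and WT KL 1 were at 0.962 and 5.61 TPM. Its levels thus split in the same place as those of Cbx2, and it shares 100 of 6487 exonic bases with Apobec3.

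Cbx8 (ENSMUSG00000025578, chromosome 11 from 119036305 to 119040969, minus strand) stood at 2.51, 2.08 and 2.25 TPM in Evi1 HSC, at 1.69 and 2.70 TPM in WT HSC 1 and 2 and at 0.713 and 0.760 TPM in WT KL 2 and 3. Levels in the libraries labelled WT HSC 3 and WT KL 1 were 0.854 and 2.96 TPM. The gap between the lowest stem cell value and the highest KL value was narrower than for Cbx2 or Cbx7. Cbx8 and Cbx2 are neighbours, with 5034 bases between them.

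Promoter stretches of Cbx7 and Cbx8 are shown because both genes were low in the same libraries while they lie on different chromosomes. That of Cbx7 lies at chr15:79932769-79932896 (GRCm38.p6, minus strand), positions -250 to -123 from the RefSeq start, within the longer GENCODE gene. That of Cbx8 lies at chr11:119040970-119041119 (minus strand), positions -206 to -57. Capitals mark CCAAT boxes (CCAAT) and GC boxes (GGGCGG) in both and an E-box (CACGTG) in Cbx8, which directly adjoins its GC box:
Cbx7: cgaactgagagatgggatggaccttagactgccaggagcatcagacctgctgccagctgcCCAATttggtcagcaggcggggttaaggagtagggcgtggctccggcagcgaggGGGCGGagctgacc
Cbx8: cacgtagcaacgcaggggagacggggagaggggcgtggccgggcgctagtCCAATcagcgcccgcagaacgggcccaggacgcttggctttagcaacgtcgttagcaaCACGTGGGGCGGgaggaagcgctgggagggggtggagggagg

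Of the 9 genes, 8 had a RefSeq promoter window of 300 bases, 250 before and 50 after the start. Over all 32851 windows, 37.4% held the CCAAT box, 35.7% held the GC box, 7.15% held the E-box and 4.60% held the NRF1 motif, each on either strand. The NRF1 motif was found in the windows of Ezh1, Ezh2 and Cbx7. The E2F letters TTTCCCGC, in 1.07% of windows, were found in that of Suz12, and TTTGGCGC, in 0.514%, in that of Ezh2. TGACGTCA, the cAMP response element, was in 1.79% of windows and in that of Cbx8. The letters of an EVI1 site, GACAAGATA, which 0.119% of windows held, were in no member's window, and neither were those of the blood factors of the GATA family (AGATAA, 11.2% of windows), the ETS family (CCGGAAGT, 3.89%), the RUNX family (TGTGGTTT, 1.78%) or the YY1 motif (0.633%). The members' windows held 17 to 41 CpG sites, against a median of 7 over all windows. These matches are descriptions of the letters.

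Shares among Cbx2, Cbx7 and Cbx8 spanned less than their levels did. Their summed TPM was 15.7 to 18.7 in Evi1 HSC, 16.8 and 18.5 in WT HSC 1 and 2 and 4.28 and 4.55 in WT KL 2 and 3. Cbx7 made up 35.7 to 40.1% of that sum in Evi1 HSC, 36.7 and 33.3% in WT HSC 1 and 2 and 24.3 and 26.6% in WT KL 2 and 3. Cbx2 held 45.5 to 51.0%, 53.2 and 52.1%, and 59.1 and 56.7% in the same libraries. The Cbx7 share was therefore lower and the Cbx2 share higher in both KL libraries than in all 5 stem cell libraries, with an exact two-sided permutation p of 0.3333 for WT HSC against WT KL and 0.2 for Evi1 HSC against WT KL, the smallest that these sizes allow. Over the 9 labelled libraries the Cbx7 share of WT HSC and WT KL gave an exact p of 0.6. Other Cbx shares reached an exact p of 0.1 over 9, the smallest possible, with 0.45 adjusted over the 18 share comparisons. These were Cbx2 in Evi1 HSC minus WT HSC, at -5.23 percentage points, and 2 shares in Evi1 HSC minus WT KL. The latter were Cbx7, at 10.4 points, and Cbx8, at -3.53 points. Over 7 libraries these differences were -3.90, 12.6 and -3.45 points in that order. Each then had an exact permutation p of 0.2, the smallest possible, and 0.5 adjusted.

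Cbx6, a further Cbx gene of PRC1 and no member of the 9, was more abundant than Cbx2, Cbx7 or Cbx8 in every library. It stood at 30.1, 22.8 and 31.7 TPM in Evi1 HSC, at 33.2 and 25.9 TPM in WT HSC 1 and 2, and at 11.2 and 7.16 TPM in WT KL 2 and 3. In the libraries labelled WT HSC 3 and WT KL 1 it was at 10.2 and 26.2 TPM, so it was low in the same 3 libraries as the other Cbx genes described. It shares 563 of its 10609 exonic bases with Npcd.

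None of the 9 genes passed limma's moderated test between Evi1 HSC and WT HSC. Over 7 libraries, 0 of 9 were called at an adjusted p under 0.05, against a background of 0.206% of all tested genes called, 40 in number. Unadjusted, 0 of 9 were under 0.05, beside 1635 of the 19461 tested genes. The median difference in log2(TPM + 1) was 0.04 over the 9 genes and 0.0005 over all tested genes. Cbx2 differed by -0.13 (SE 0.16, 95% interval -0.51 to 0.25, adjusted p = 0.892), Cbx7 by 0.08 (SE 0.18, -0.35 to 0.50, adjusted p = 0.956) and Ezh1 by 0.16 (SE 0.27, -0.48 to 0.79, adjusted p = 0.929). Intervals were wider for Ezh2, at 0.40 (SE 0.37, -0.48 to 1.29), and for Bmi1, at -0.20 (SE 0.41, -1.17 to 0.77). They took in a level higher by near 1 in Evi1 HSC for Ezh2 and lower by near 1 for Bmi1. Ring1 was lower in Evi1 HSC by a log2 difference of -0.41 (SE 0.20, -0.89 to 0.07), with an unadjusted p of 0.083 and an adjusted p of 0.659 by limma.

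Over the 9 libraries as labelled, 0 of 9 were called in this comparison and 0.00514% of all genes, with adjusted p from 0.791 to 0.981 by limma. Unadjusted, 0 of 9 were under 0.05, beside 907 of the 19461 genes. The differences of Ezh1 and Cbx7 were then 0.86 (SE 0.62) and 0.70 (SE 0.60), against 0.16 and 0.08 over 7 libraries, with the library labelled WT HSC 3 in the WT HSC mean. Cbx2 stood at 0.41 with that library and at -0.13 over 7 libraries. The count of 40 genes over 7 libraries ran from 5 to 27 when another library was left out.

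WT HSC and WT KL differed over 7 libraries in Ezh1, Cbx2, Cbx7 and Cbx8, all higher in WT HSC. Ezh1 was higher by a log2 difference of 1.53 (SE 0.29, 95% interval 0.84 to 2.23, limma adjusted p = 0.0072), Cbx2 by 1.53 (SE 0.17, 1.12 to 1.94, adjusted p = 0.00099) and Cbx7 by 1.76 (SE 0.20, 1.29 to 2.22, adjusted p = 0.00092). Cbx8 was higher by 0.86 (SE 0.23, 0.32 to 1.40, adjusted p = 0.025). It was below 1 TPM in WT KL 2 and 3, at 0.713 and 0.760 TPM, and in the library labelled WT HSC 3. Cbx8 thus passed the filter on low values only through libraries where it was higher, which limits what its call can show. The core subunits Eed and Suz12 and the methyltransferase gene Ezh2 were not called, with differences of -0.09 (SE 0.18), -0.33 (SE 0.21) and -0.05 (SE 0.41), nor were Bmi1 at 0.72 (SE 0.45, adjusted p = 0.247) and Ring1 at 0.22 (SE 0.22, adjusted p = 0.472). In bulk samples such as these, fewer cells of a type and less RNA per cell cannot be told apart.

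The count of 4 of 9 stands beside a background of 37.5% of all genes called, 26.7% higher and 10.8% lower in WT HSC, so the share called among the Polycomb genes was near that of all genes. Their median difference was 0.72, against 0.26 over all tested genes. Rescaling the libraries by median-of-ratios moved the median of all genes by 0.27 and the numbers called from 5203 higher and 2104 lower to 4171 and 3998. On that scale Ezh1 was higher by 1.24, Cbx2 by 1.26, Cbx7 by 1.53 and Cbx8 by 0.68, all still called, and Suz12 was called lower in WT HSC, at -0.66 (adjusted p = 0.036). The Cbx8 call rests on both groups' small numbers: leaving out WT HSC 2 gave an adjusted p of 0.115, leaving out WT KL 2 gave 0.101 and leaving out WT KL 3 gave 0.092, while Ezh1, Cbx2 and Cbx7 were called in each of these fits.

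Over the 9 libraries as labelled, 0 of the 9 genes were called between WT HSC and WT KL and 0.00514% of all genes, and the differences of Ezh1, Cbx2, Cbx7 and Cbx8 were 0.38 (SE 0.62), 0.50 (SE 0.53), 0.59 (SE 0.60) and 0.21 (SE 0.39). At an unadjusted p under 0.05, 282 of the 19461 genes passed and 0 of the 9. Each of the differences called over 7 libraries therefore depends on leaving out the libraries that went against their labels.

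**Figure D3:**
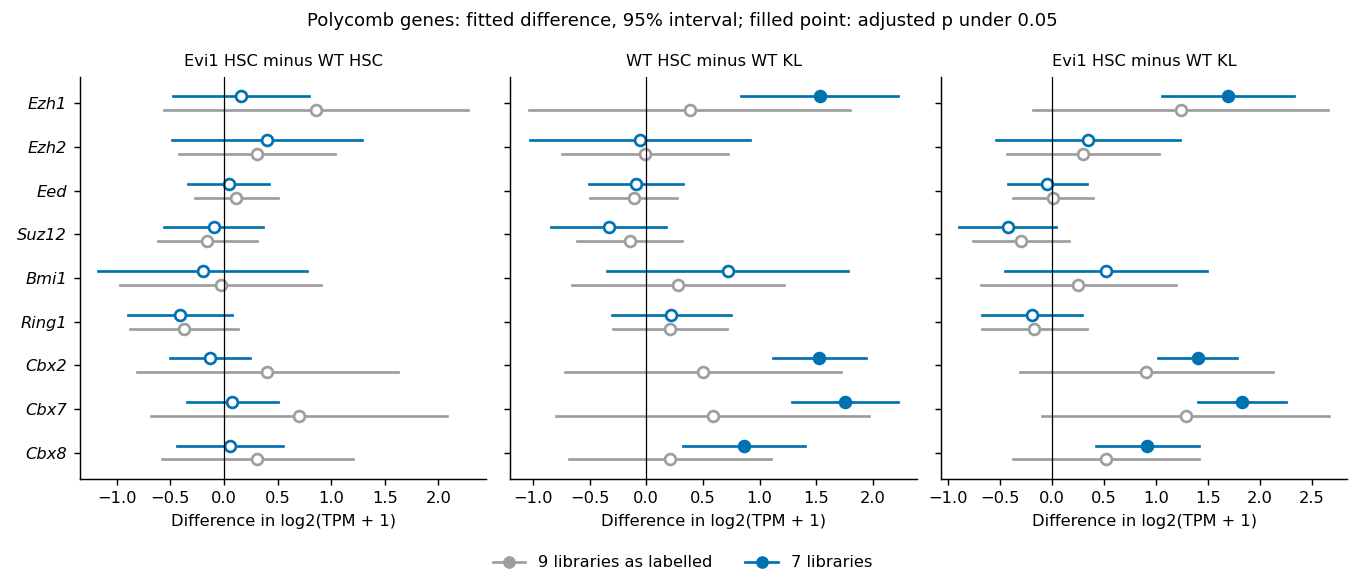
Fitted difference in log2(TPM + 1) (horizontal axis) of the 9 genes in the 3 comparisons, with 95% intervals, over 9 libraries as labelled (grey) and over 7 libraries (blue). Filled points had an adjusted p under 0.05. Ezh1, Cbx2, Cbx7 and Cbx8 are filled in both comparisons with WT KL over 7 libraries, and no point is filled between Evi1 HSC and WT HSC or over 9 libraries.

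Evi1 HSC against WT KL shares its WT KL libraries with the comparison before it, so the values stand side by side and are no second test. Over 7 libraries Ezh1 was higher in Evi1 HSC by a log2 difference of 1.69 (SE 0.27, 95% interval 1.06 to 2.32, limma adjusted p = 0.0025), Cbx2 by 1.40 (SE 0.16, 1.02 to 1.78, adjusted p = 0.00063), Cbx7 by 1.83 (SE 0.18, 1.41 to 2.25, adjusted p = 0.00035) and Cbx8 by 0.91 (SE 0.21, 0.42 to 1.41, adjusted p = 0.011). The background was 45.5% of genes called, 31.3% higher and 14.3% lower, near the share of 4 of 9. The median difference was 0.52 over the 9 genes and 0.28 over all genes. Suz12 differed by -0.43 (SE 0.20, adjusted p = 0.117) and was called lower after rescaling, at -0.76 (adjusted p = 0.013), while Ezh2 differed by 0.35 (SE 0.37) and Bmi1 by 0.52 (SE 0.41), neither called. The Cbx8 call was lost without WT KL 2 (adjusted p = 0.065) and without WT KL 3 (adjusted p = 0.059). The limit from the filter, given above for Cbx8, applies here too. Over the 9 labelled libraries 0 of the 9 genes and 0.0103% of all genes were called, with Ezh1 at 1.24 (SE 0.62, limma adjusted p = 0.311) and Cbx7 at 1.28 (SE 0.60, adjusted p = 0.310). Unadjusted, 0 of the 9 were under 0.05, beside 2956 of the 19461 genes.

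Other cell types' markers moved with these comparisons. Of 10 granulocyte and monocyte markers, 9 reached 1 TPM in WT KL 2 and 3, with sums of 2084 and 626 TPM, against 3 of 10 and sums of 26.5 to 40.9 TPM in the 5 stem cell libraries, where Ctsg, S100a8 and S100a9 were listed at 0. Of 12 stem cell markers, 12 reached 1 TPM in both stem cell groups, with sums of 863 to 962 TPM, and 4 in WT KL, with sums of 29.0 and 21.5 TPM. For the libraries labelled WT HSC 3 and WT KL 1 the granulocyte and monocyte sums were 1156 and 42.3 TPM, and the stem cell sums were 22.2 and 837 TPM.

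Of 12 erythroid markers, 7 reached 1 TPM in every Evi1 HSC library, 10 in WT HSC 1 and 2 and 12 in WT KL 2 and 3. Their sums, 919 to 2016 TPM in the 5 stem cell libraries and 1781 and 1811 TPM in WT KL 2 and 3, join genes that went in different directions. The globin gene Hbb-bt was at 545 to 1429 TPM in the stem cell libraries and lower in WT KL 2 and 3, at 187 and 165 TPM. The erythroid factor genes ran the other way. Klf1 was at 0.110 to 2.51 TPM in Evi1 HSC, at 23.1 and 21.1 TPM in WT HSC 1 and 2 and at 147 and 151 TPM in WT KL 2 and 3. Gata1 was at 2.79 to 4.20, at 17.3 and 18.2, and at 107 and 118 TPM in these libraries, and Tfrc, the transferrin receptor, at 18.9 to 33.8, at 76.7 and 71.8, and at 342 and 375 TPM. Erythroid sums reached 1862 TPM for the library labelled WT HSC 3 and 3847 TPM for that labelled WT KL 1.

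Endothelial markers, 7 genes, summed to 75.9 to 145 TPM in the stem cell libraries and to 8.21 and 5.47 TPM in WT KL 2 and 3, where Lyve1 was listed at 0. Megakaryocyte markers, 8 genes, summed to 35.2 to 47.7 TPM, against 9.79 and 12.5 TPM. Mast cell, basophil and eosinophil markers, 7 genes, summed to 0.332 to 0.698 TPM, against 20.5 and 9.19 TPM. Over the 7 libraries the sums of the lymphoid list were 1.92 to 23.8 TPM, and those of the macrophage, hepatocyte and stroma lists were at most 7.89 TPM. The hepatocyte sum was 23.3 TPM in the library labelled WT KL 1 and 1.0 TPM in that labelled WT HSC 3. The part of cell composition in the levels of Ezh1 and the Cbx genes was not tested.

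The wider set of Polycomb genes was described by role, and no test compared the roles. Of 46 tested genes in 7 lists, which include the 9, the fit over 7 libraries called 17 higher and 4 lower in WT HSC than in WT KL, and 21 higher and 5 lower in Evi1 HSC than in WT KL. The backgrounds were 26.7% of all genes higher and 10.8% lower, 37.5% together, in the first comparison and 31.3% and 14.3%, 45.5% together, in the second. The median differences of the 46 genes were 0.42 and 0.50, against 0.26 and 0.28 over all genes. Neither the 21 and 26 of 46 nor the counts per role, of 4 to 9 genes each, were tested against these backgrounds, and they are given as a description only. Over the 9 libraries as labelled, limma called 0 of the 46 in each of the 3 comparisons, and 2 in each were under 0.05 unadjusted. Of all 19461 genes, 907 were under 0.05 unadjusted between Evi1 HSC and WT HSC. The numbers were 282 between WT HSC and WT KL and 2956 between Evi1 HSC and WT KL.

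The PRC2 core had 1 of 6 called, Ezh1 itself, in each comparison, with Rbbp7 at 140 to 172 TPM and Rbbp4 at 46.2 to 80.8 TPM in all libraries. Besides Cbx2, Cbx7 and Cbx8, Cbx6 was called higher in both, by 1.61 (SE 0.26, adjusted p = 0.0038) in WT HSC and by 1.54 (SE 0.24, adjusted p = 0.0023) in Evi1 HSC.

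Among the PRC2 accessory genes, which steer the complex to its sites, 3 of 7 were called higher in WT HSC and 5 of 7 in Evi1 HSC, against backgrounds of 26.7% and 31.3% of all genes. Jarid2, which recruits PRC2, stood at 27.7, 33.2 and 43.6 TPM in Evi1 HSC, at 38.1 and 36.9 TPM in WT HSC 1 and 2 and at 12.5 and 6.36 TPM in WT KL 2 and 3. It was higher by 1.95 and 1.82 in log2 than in WT KL (adjusted p = 0.0040 and 0.0026). Of the RING and PCGF genes 3 of 8 were called higher in each stem cell group, Rnf2, Pcgf2 and Pcgf5, and Pcgf6, of a variant PRC1, was called lower in Evi1 HSC at -0.97 (adjusted p = 0.046). Rnf2 was higher by 0.57 in WT HSC and by 0.81 in Evi1 HSC, Pcgf2 by 1.02 and 1.17, and Pcgf5 by 1.64 and 1.20.

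Of the PHC and SCM genes, which link PRC1 complexes together, 3 of 5 were called higher in each comparison, beside the same backgrounds. Phc1 stood at 25.3 to 38.6 TPM in Evi1 HSC, at 29.0 and 32.3 TPM in WT HSC 1 and 2 and at 7.89 and 5.04 TPM in WT KL 2 and 3, and was higher by 2.11 and 2.22. Variant PRC1 genes moved in both directions, with 1 of 9 called higher and 2 lower in WT HSC, and 2 higher and 2 lower in Evi1 HSC. Auts2 was higher by 2.04 and 1.71, and L3mbtl2, at 11.6 to 20.0 TPM in the 5 stem cell libraries and 39.1 and 37.4 TPM in WT KL, was lower, at -1.03 and -1.30 (adjusted p = 0.014 and 0.0029). Wdr5, which many chromatin complexes share, was lower, at -0.41 and -0.49.

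Among the genes that oppose Polycomb marks, the fit called 2 of 7 higher and 2 lower in WT HSC than in WT KL, and 3 higher and 2 lower in Evi1 HSC, beside the same backgrounds. Kdm6b, a demethylase of lysine 27 of histone H3, was higher by 1.59 and 1.76, at 16.9 to 22.3 TPM in the 5 stem cell libraries and 3.81 and 7.07 TPM in WT KL. Bap1, the enzyme that removes ubiquitin from histone H2A, was lower, at -0.38 and -0.47 (adjusted p = 0.043 and 0.012), as was its partner Foxk2, at -0.59 and -0.60. Between Evi1 HSC and WT HSC, 0 of the 46 genes were called by limma over 7 libraries, with a median difference of 0.05. Of the 46, 1, Pcgf1, was under an unadjusted p of 0.05, beside 1635 of all 19461 genes.

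**Figure D4:**
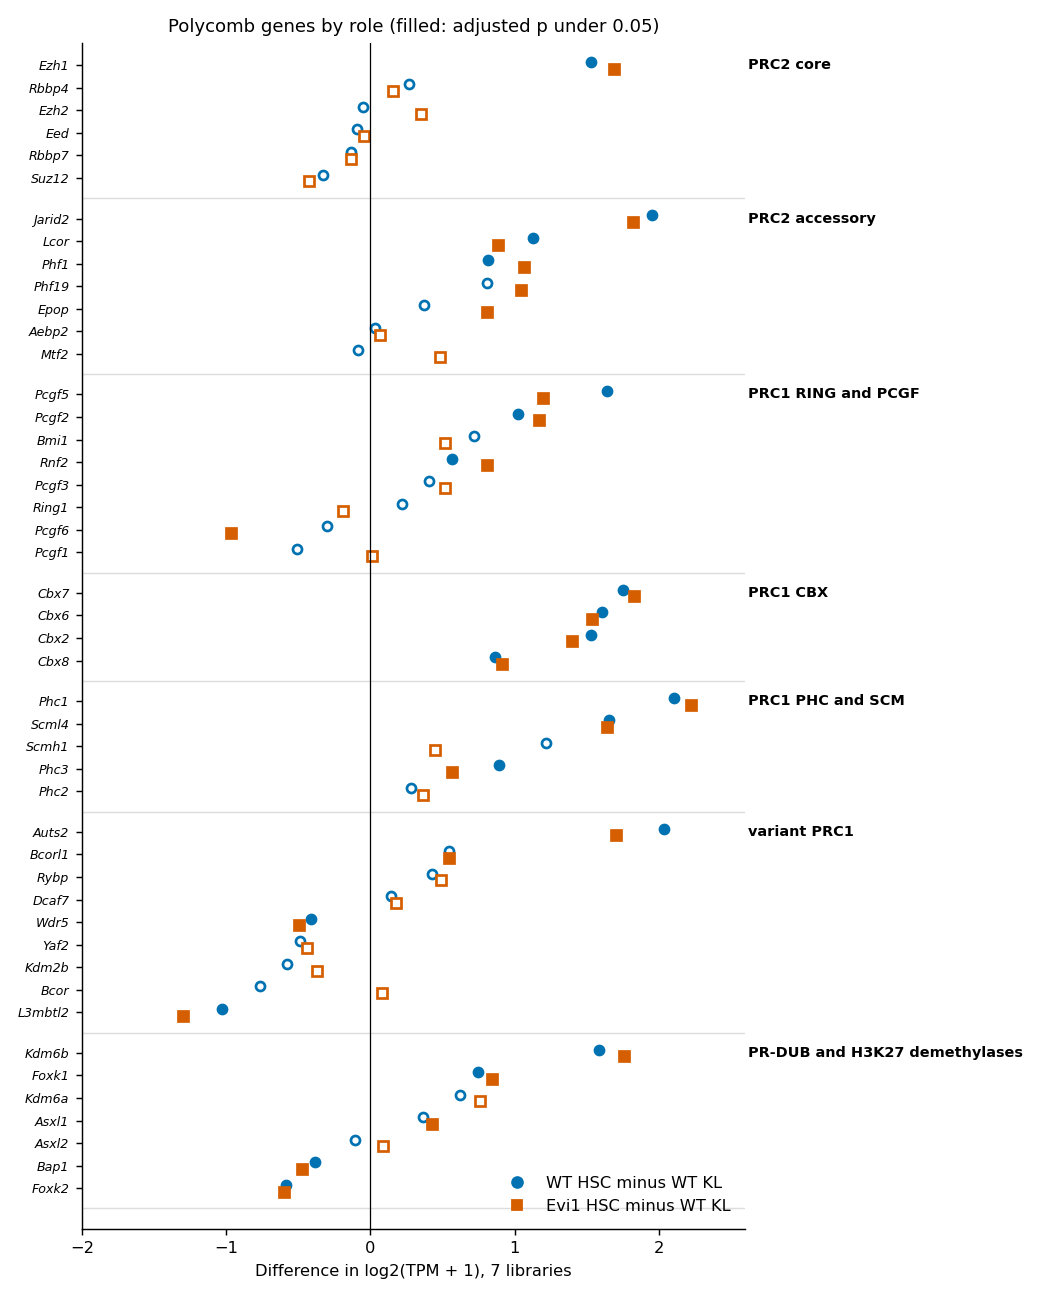
Fitted difference in log2(TPM + 1) over 7 libraries (horizontal axis) of the 46 tested Polycomb genes, grouped by role, for WT HSC minus WT KL (circles) and Evi1 HSC minus WT KL (squares). Filled points had an adjusted p under 0.05, and both comparisons share the WT KL libraries. In the PRC2 core Ezh1 is the filled gene, and Cbx2, Cbx6, Cbx7 and Cbx8 are filled in both comparisons.

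Cell cycle inhibitors that Polycomb is known to repress in other settings were looked up too. Cdkn2a was listed at 0 in 8 libraries and at 0.116 TPM in WT HSC 2, and Cdkn2b was listed at 0 in 8 and at 0.119 TPM in Evi1 HSC 1. Cdkn1a stood at 0.172 to 1.09 TPM. Cdkn1c, an inhibitor known for its high level in quiescent stem cells, stood at 30.8, 27.1 and 35.5 TPM in Evi1 HSC, at 21.7 and 27.8 TPM in WT HSC 1 and 2 and at 1.44 and 1.29 TPM in WT KL 2 and 3. For the pair that went against its labels, Cdkn1c was at 0.16 TPM (labelled WT HSC 3) and 28.7 TPM (labelled WT KL 1). Over 7 libraries it was higher by 3.44 and 3.76 in log2 than in WT KL (limma adjusted p = 9.7e-05 and 3.3e-05), and over 9 the differences were 0.73 and 2.54, neither called (limma adjusted p = 0.963 and 0.318).

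Genes whose log2(TPM + 1) over the 9 libraries lay closest to that of Ezh1 or Cbx7, each centred on its mean, were sought among 6844 genes whose mean reached 10 TPM. Those nearest to Ezh1 were Bbx, Mgrn1 and Erap1, with root mean square differences of 0.15, 0.18 and 0.18. Those nearest to Cbx7 were Zfp36l2, at 0.063, Malat1, at 0.065, and Ski, at 0.090. Zfp36l2 encodes an RNA-binding protein and Malat1 is a nuclear long noncoding RNA. Malat1 stood at 607 to 827 TPM in Evi1 HSC, against 217 and 208 TPM in WT KL 2 and 3.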

How the data were processed

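The authors deposited TPM values per gene, 1 library per file with none pooled, per the file headers; the values of WT HSC 2 stood under a C_H3 heading and were taken as TPM since sum and range were like those of the others. The submitters' processing notes name HISAT2, StringTie and mm10, while roles, versions, annotation and strand use are not stated in the sources used here. TPM keeps no depth, so no counting interval was given, and the genes listed took 56.9 to 63.8% of each library's scale.

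Values were analysed as log2(TPM + 1), which understates changes of low genes, with limma 3.58.1 in R 4.3.3 (moderated statistics with a trend). The fit used all 3 groups, genes that reached 1 TPM in 3 or more of the 9 libraries, and Benjamini-Hochberg adjustment over 19461 genes, with calls at an adjusted p under 0.05. It was run over 9 libraries as labelled and over 7. Shares were compared by exact two-sided permutation tests. The scripts were tested on simulated data.

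The members and the lists were chosen with earlier results of these data known. Beyond the 9, the genes named with values were the paralogues that a share needs and, per direction, up to 6 called Polycomb genes with the largest differences and at least 5 TPM in the higher group. Cbx6 was named under the first part of that rule, though no share with it is given. Rbbp4, Rbbp7, Pcgf1, Cdkn1a, Cdkn2a, Cdkn2b and single marker genes were named after their values were seen. Of the listed symbols, 1 had no match. In the wider lists, 1 gene is not reported here. Of the lists, Scml2, Asxl3, Cdkn1a, Cdkn2a and Cdkn2b did not pass the filter. Gene positions are from GENCODE M21 on GRCm38, promoters from RefSeq on GRCm38.p6, and motifs were sought on both strands. Alternatives were a pseudocount of 0.1, no filter, median-of-ratios scaling, the compared groups alone, no trend, a replicate block, and leaving out each library.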

Additional observations from a re-analysis of the deposited data

How the results depend on the processing

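Ezh1, Cbx2 and Cbx7 were called against WT KL over 7 libraries under each alternative run, and all members stayed uncalled between Evi1 HSC and WT HSC. Beside the Cbx8 losses above, the replicate block gave Cbx8 0.91 (adjusted p = 0.091) for WT HSC against WT KL, with Ezh1 at 1.39, Cbx2 at 1.62 and Cbx7 at 1.78 still called. Same-numbered WT HSC and WT KL libraries had deviations correlated at 0.621, -0.636 and 0.704 over 9 libraries, and the other same-numbered pairs at -0.104 to 0.04; over 7 libraries the 5 pairs left, 1 of them WT HSC with WT KL, ran from -0.062 to -0.007. These values cannot tell whether same-numbered libraries shared an origin. The group means over 9 libraries include the 2 that went against their labels, and over 7 only 1 WT HSC and WT KL pair is left. The main fit took the libraries as unpaired, and the replicate block is given beside it. Under the replicate block the all-gene counts over 7 libraries were 0, 4947 and 7526 in the order of the report, against 40, 7307 and 8863, and 30 and 73 replaced 40 with a pseudocount of 0.1 and without a filter, and 6 with the compared groups alone. 

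The members' differences changed sign 34 times over all alternatives, none of them called, with a largest size of 0.48. Suz12 between Evi1 HSC and WT HSC became 0.030 with the replicate block, and Ring1 between WT HSC and WT KL became -0.054 after rescaling. With 1 library left out of 7, Evi1 HSC minus WT HSC ran from -0.050 to 0.36 for Ezh1, -0.13 to 0.93 for Ezh2, -0.084 to 0.14 for Eed, -0.30 to 0.10 for Suz12, -0.39 to 0.079 for Bmi1 and -0.18 to 0.28 for Cbx8. WT HSC minus WT KL ran from -0.59 to 0.48 for Ezh2 and -0.20 to 0.015 for Eed, and Evi1 HSC minus WT KL from -0.17 to 0.057 for Eed and -0.092 to 1.13 for Bmi1. With 1 left out of 9, Evi1 HSC minus WT HSC ran from -0.0070 to 0.57 for Ezh2, -0.010 to 0.21 for Eed, -0.22 to 0.25 for Bmi1 and -0.13 to 0.70 for Cbx2. WT HSC minus WT KL then ran from -0.069 to 1.08 for Ezh1, -0.23 to 0.30 for Ezh2, -0.27 to 0.029 for Suz12, -0.16 to 0.55 for Bmi1 and -0.033 to 0.61 for Cbx8, and Evi1 HSC minus WT KL from -0.12 to 0.10 for Eed and -0.19 to 0.53 for Bmi1. Rescaling the 9 libraries gave Eed -0.031 in the first comparison and -0.22 in the last. The cause was not tested.

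The Cbx shares over a wider sum are not reported here. For shares in percentage points over 7 libraries, WT HSC minus WT KL was -5.30 for Cbx2, 9.63 for Cbx7 and -2.42 for Ring1, and over 9 libraries -1.64, 3.38 and 0.70, so that Ring1 turned direction. Groups of 2 or 3 libraries limit what these values can show.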
